A study of Mus musculus with 12 samples.

Results

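Fos, Fosb and Jun, the immediate early genes that encode the core subunits of the AP-1 transcription factor, were followed across 12 bulk RNA-seq libraries of the embryonic mouse cerebral cortex. They were taken by gene symbol from a table of 4859 coding genes, and Junb, Jund, Atf3 and Dusp1 were added because the table holds them, so that 7 genes are described out of the 9 that were looked up. Egr1 and Ier2 were not analysed here. The cells came from embryos of the transgenic line Tg(Ebf2-EGFP)FB58Gsat, in which EGFP is driven by Ebf2 regulatory sequence, and were sorted by fluorescence into Ebf2-EGFP+ and Ebf2-EGFP- cells on 3 embryonic days, E11.5, E13.5 and E15.5. No group received a treatment, and each of the 6 groups holds 2 libraries, replicates 1 and 2, made from pooled embryos. By the study's account, the Ebf2-EGFP+ sort of E11.5 gathers a mix of young neurons of the preplate. That of E15.5 is described as chiefly Cajal-Retzius (CR) neurons. The Ebf2-EGFP- cells are whatever else the dissociated cortex held, at first mainly progenitors and later also cortical plate neurons, so neither population is the same mixture of cells at the 3 stages.

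Immediate early genes are transcribed within minutes of a stimulus, without new protein synthesis, when signalling through MAP kinases and calcium activates factors such as SRF and CREB that already sit at their promoters. Fos and Fosb proteins have a basic leucine zipper and bind DNA only as dimers with a Jun protein, whereas Jun, Junb and Jund can also pair among themselves. Atf3 is a stress-induced bZIP factor that pairs with Jun proteins and often represses, and Dusp1 is a phosphatase that removes the phosphates from MAP kinases and so closes the loop. In brain tissue these genes are induced by neuronal activity, by growth factors and by tissue handling such as dissociation.

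The 250 bases upstream of the RefSeq transcription start of Fos, Fosb and Jun are shown 5′ to 3′ on the gene's strand (GRCm38.p6). All 7 genes had such a window. The short elements that each of the windows shown holds can thus be read in place. Capitals mark the core TGACG of the cyclic AMP response element (CRE), the site of CREB, and the 8-base variant TGACNTCA, searched on both strands. The window of Fos is chr12:85473640-85473889 on the plus strand, that of Fosb is chr7:19310046-19310295 on the minus strand, and that of Jun is chr4:95052223-95052472 on the minus strand.
Fos: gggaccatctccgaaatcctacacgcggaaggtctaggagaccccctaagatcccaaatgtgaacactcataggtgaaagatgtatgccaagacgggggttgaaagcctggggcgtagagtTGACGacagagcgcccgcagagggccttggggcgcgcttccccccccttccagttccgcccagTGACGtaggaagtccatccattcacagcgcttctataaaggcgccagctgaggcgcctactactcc
Fosb: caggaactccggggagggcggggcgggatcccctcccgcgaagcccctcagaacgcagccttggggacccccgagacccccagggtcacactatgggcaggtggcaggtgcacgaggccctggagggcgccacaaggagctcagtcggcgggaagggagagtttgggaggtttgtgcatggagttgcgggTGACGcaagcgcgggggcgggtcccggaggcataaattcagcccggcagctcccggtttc
Jun: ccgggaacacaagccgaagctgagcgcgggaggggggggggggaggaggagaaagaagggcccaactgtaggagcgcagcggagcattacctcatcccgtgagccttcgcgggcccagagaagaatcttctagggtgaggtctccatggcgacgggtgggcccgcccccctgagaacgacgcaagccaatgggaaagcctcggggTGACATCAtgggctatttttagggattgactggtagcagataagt

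TGACG stood in the Fos window at 129 to 125 and at 66 to 62 bases before the start, and in the Fosb window at 60 to 56 bases. The windows of Junb, Atf3 and Dusp1 held it too, and that of Jund held none of the motifs searched. The Jun window held TGACNTCA, as TGACATCA, at 45 to 38 bases, and this variant was added to the search after the Jun sequence had been seen. TGACG was present in 17.8% of the 32851 RefSeq promoter windows of this length and TGACNTCA in 7.49%. The full CRE TGACGTCA, which contains TGACG on both strands and is also a match to TGACNTCA, was present in 1.55% of windows and, among the 7 genes, in that of Dusp1 at 143 to 136 bases. The AP-1 site TGANTCA (6.75% of windows) and the CArG box bound by SRF (1.47%) were in none of the 7 windows. Sequence further upstream was not searched, so these absences hold only for the windows and for the exact motifs searched. They do not show that a gene lacks such a site. TATAAA was found in the Fos window at 33 to 28 bases (12.4% of windows), and CCAAT in those of Jun and Junb (33.8%). Among the 4764 windows of genes of the table, TGACG was present in 22.3%, TGACNTCA in 5.75% and TGACGTCA in 2.27%. There TGANTCA was present in 4.03%, the CArG box in 1.47%, TATAAA in 6.42% and CCAAT in 34.7%. The 7 genes are protein coding. Fos lies on chromosome 12 (85473890 to 85477273, plus strand), Fosb on chromosome 7 (19302696 to 19310051, minus strand) and Jun on chromosome 4 (95049034 to 95052222, minus strand) of GRCm38. FPKM were summarised per gene by the authors.

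The summed FPKM of 10 CR neuron markers was 414 to 1326 in the Ebf2-EGFP+ libraries and 19.9 to 89.8 in the Ebf2-EGFP- libraries. The deposited values are FPKM, fragments per kilobase of transcript scaled to the mapped fragments of the library, so levels can be set side by side between genes. They hold no counts, so the depth of each single library is unknown. The table holds only genes that the authors had called different between the populations, so a high share of it passes a test between them. Differences are on the log2(FPKM + 1) scale, as mean ± SE from limma, and a change was called at an adjusted p under 0.05 over all 4859 genes.

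Jund and Fos had the highest mean FPKM of the 7 genes over the 12 libraries, at 94.99 and 98.9, followed by Jun at 81.8 and Dusp1 at 48.7. Fosb averaged 21.8, Junb 9.01 and Atf3 2.15. Between its lowest and its highest library Atf3 moved over 23.7-fold, at low levels, and Fos over 17.4-fold, against 14.2-fold for Fosb, 8.45-fold for Jun, 5.95-fold for Junb and 3.30-fold for Jund. The lowest libraries of Fos, Fosb, Jun and Junb were the same one, replicate 2 of the E11.5 Ebf2-EGFP+ cells. In these bulk libraries, fewer cells that express a gene and less of its RNA per cell cannot be told apart.

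**Figure D1:**
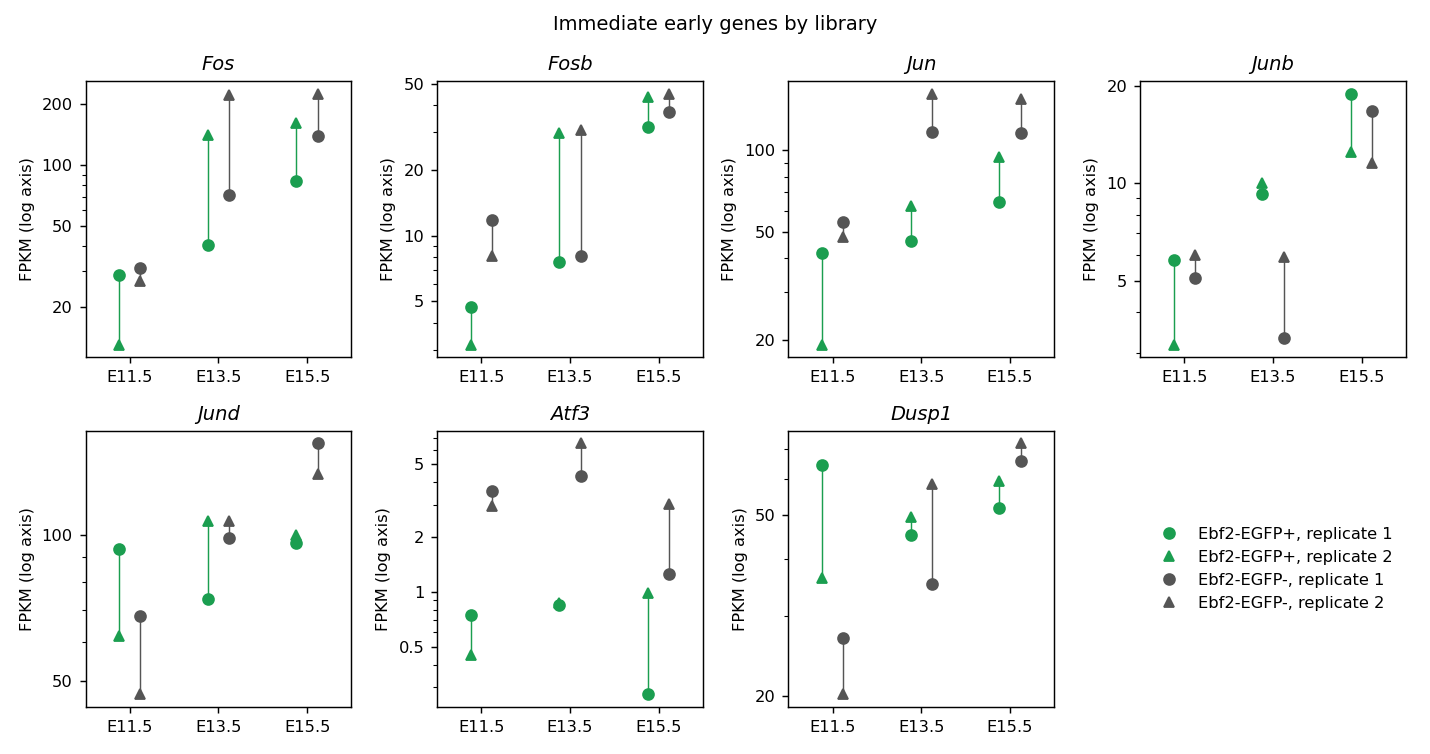
FPKM of each gene (log axis) in the 12 libraries by embryonic day. Green points are Ebf2-EGFP+ and grey points Ebf2-EGFP- libraries, circles are replicate 1 and triangles replicate 2, and a line joins the 2 libraries of a group. Fos, Fosb and Jun were higher at E15.5 than at E11.5 in both populations, and at E13.5 the 2 replicates of Fos and Fosb lay far apart in both.

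Balanced sums of squares separated the 3 sources of variation, as a description. Stage took 72.7% of the variation of Fos, 70.7% of that of Fosb and 52.0% of that of Jun, where the median over all genes of the table was 45.6%. Population took 5.98% of Fos and 3.55% of Fosb but 33.5% of Jun, close to the median of 34.1%. The replicate number within a stage, shared by both populations, took 20.1% of Fos and 21.4% of Fosb, higher than in 98.6% and 98.7% of the genes of the table. Its share was 9.73% in Jun, against a median of 2.35%. Stage and replicate together thus carried most of the variation of Fos and Fosb. Atf3 was the opposite case, with 74.1% of its variation between the populations and 11.3% between stages. Junb (70.0%) and Jund (59.5%) resembled Fos in the share of stage, and Dusp1 had the largest share of the interaction between stage and population, 28.5%.

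**Figure D2:**
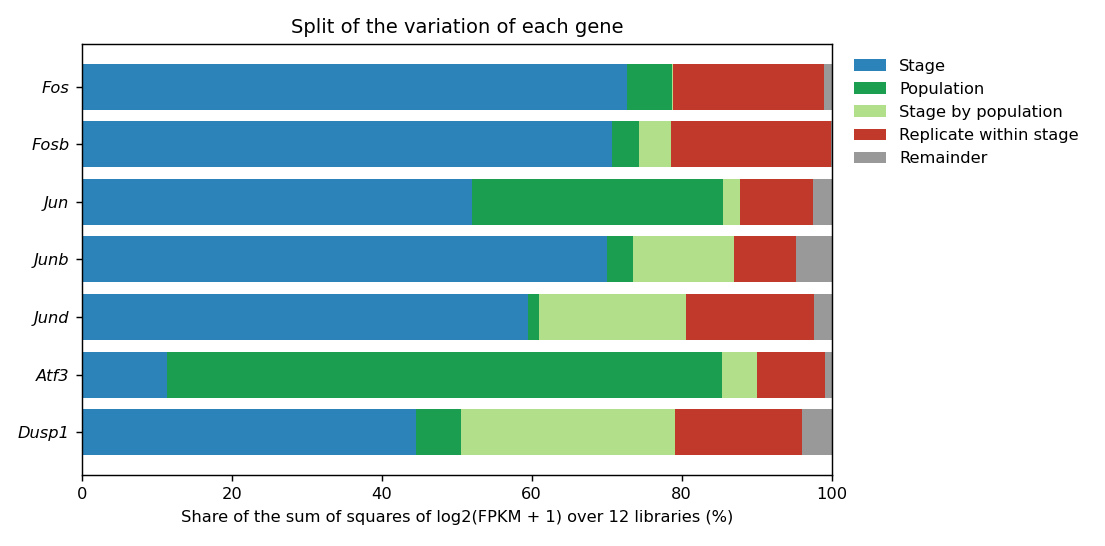
Share (%) of the sum of squares of log2(FPKM + 1) over the 12 libraries taken by stage (blue), population (green), their interaction (light green), replicate number within stage (red) and the remainder (grey), as stacked bars per gene. Stage is the longest segment for every gene except Atf3, where population is, and the replicate segment is widest for Fos (20.1%) and Fosb (21.4%).

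Among the Fos family genes, Fos itself was listed at 28.6 and 13.01 FPKM in replicates 1 and 2 of the E11.5 Ebf2-EGFP+ cells. In those of the Ebf2-EGFP- cells it was at 31.2 and 26.8. At E13.5 it was at 40.4 and 141 in Ebf2-EGFP+ cells and at 71.0 and 223 in Ebf2-EGFP- cells. At E15.5 it was at 83.6 and 163 in Ebf2-EGFP+ cells and at 139.7 and 226 in Ebf2-EGFP- cells. Within each population every library of the 2 later stages lay above both E11.5 libraries, whereas E13.5 and E15.5 overlapped. Such a separation of a later stage above E11.5 held for 32.5% (E13.5) and 39.5% (E15.5) of the table in Ebf2-EGFP+ cells and for 36.2% and 41.8% in Ebf2-EGFP- cells. Over the whole interval to E15.5 Fos rose by 2.53 ± 0.61 in Ebf2-EGFP+ cells (adjusted p = 0.00277) and by 2.58 ± 0.61 in Ebf2-EGFP- cells (adjusted p = 0.00191). Most of this was reached by E13.5, with rises of 1.91 ± 0.61 (adjusted p = 0.0193) and 2.09 ± 0.61 (adjusted p = 0.0123), and the further difference to E15.5 did not pass the test (0.62 and 0.49, adjusted p = 0.454 and 0.498). The rise to E13.5 rested on replicate 2: without it the difference was 1.02 in Ebf2-EGFP+ cells (adjusted p = 0.209) and 1.27 in Ebf2-EGFP- cells (adjusted p = 0.152). It also lost its call without replicate 2 of the E11.5 cells, at 1.37 in Ebf2-EGFP+ cells (adjusted p = 0.162) and 1.98 in Ebf2-EGFP- cells (adjusted p = 0.0625).

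Fosb, the close relative of Fos, was listed at 4.73 and 3.17 FPKM in E11.5 Ebf2-EGFP+ cells, 7.62 and 29.7 at E13.5, then 31.5 and 43.4 on E15.5. The Ebf2-EGFP- libraries held 11.8 and 8.10, 8.11 and 30.8, and 37.2 and 45.1 at the same stages. The groups of successive stages did not overlap in Ebf2-EGFP+ cells (for E15.5 above E13.5 this held for 40.2% of the table), whereas in Ebf2-EGFP- cells replicate 1 of E13.5 lay within the range of E11.5. Fosb rose by 2.96 ± 0.58 from E11.5 to E15.5 in Ebf2-EGFP+ cells (adjusted p = 0.000617) and by 1.96 ± 0.58 in Ebf2-EGFP- cells (adjusted p = 0.00728). The latter call was lost without replicate 2 of the E11.5 Ebf2-EGFP- cells, at 1.71 (adjusted p = 0.0522). The difference from E13.5 to E15.5 was 1.23 ± 0.58 in Ebf2-EGFP+ cells (adjusted p = 0.110) and 1.30 ± 0.58 in Ebf2-EGFP- cells (adjusted p = 0.0661, or 0.0281 with the replicate as a random block). Without replicate 2 of the E13.5 group it passed in both, at 2.14 (adjusted p = 0.0137) and 2.203 (adjusted p = 0.00778), and without replicate 1 it was 0.31 and 0.40. In Ebf2-EGFP- cells it also passed without either E13.5 Ebf2-EGFP+ library, which alters the spread alone (adjusted p = 0.0268 and 0.0270). The Fosb difference of the Ebf2-EGFP- cells between E11.5 and E13.5 ran from -0.25 without replicate 2 of E13.5 to 1.56 without replicate 1 (adjusted p = 0.0367). The rise to E13.5 was called in Ebf2-EGFP+ cells, at 1.73 ± 0.58 (adjusted p = 0.0227), but without replicate 2 of that group it was 0.82 (adjusted p = 0.256). It also lost its call when either E11.5 Ebf2-EGFP+ library was left out, at 1.97 without replicate 1 (adjusted p = 0.0536) and 1.504 without replicate 2 (adjusted p = 0.126).

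Fosl2 was the other Fos family gene of the table. It was listed at 0.765 and 0.93 FPKM in E11.5 Ebf2-EGFP+ cells and at 26.7 and 18.4 in those of E15.5, a rise of 3.65 ± 0.28 (adjusted p = 5.63e-07). In Ebf2-EGFP- cells it went from 0.66 and 0.435 to 6.89 and 4.37, a rise of 2.08 ± 0.28 (adjusted p = 2.41e-05). At E15.5 it was higher in Ebf2-EGFP+ cells by 1.83 ± 0.28 (adjusted p = 0.000204). Of the summed FPKM of Fos, Fosb and Fosl2, Fos held 58.9% and 72.4% in the 2 E15.5 Ebf2-EGFP+ libraries and 76.0% and 82.1% in the Ebf2-EGFP- libraries of that stage, with Fosl2 at 18.8% and 8.20% against 3.75% and 1.59%. The ratio of Fos to Fosb ran between 2.64 and 8.76 over the 12 libraries.

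On the Jun side, Jun was listed at 41.8 and 19.2 FPKM in E11.5 Ebf2-EGFP+ cells, 46.2 and 62.3 at E13.5, then 64.4 and 94.96 on E15.5. The Ebf2-EGFP- libraries of these stages held 54.5 and 48.1, 117 and 162, and 116 and 155. Every Ebf2-EGFP- library lay above both Ebf2-EGFP+ libraries of its stage, which held for 50.1%, 49.7% and 44.6% of the table at the 3 stages in order. Jun rose from E11.5 to E15.5 by 1.43 ± 0.32 in Ebf2-EGFP+ cells (adjusted p = 0.00173) and by 1.37 ± 0.32 in Ebf2-EGFP- cells (adjusted p = 0.00175). In Ebf2-EGFP- cells the rise lay between E11.5 and E13.5 (1.41 ± 0.32, adjusted p = 0.00313), with a difference of -0.04 ± 0.32 after that. In Ebf2-EGFP+ cells the E13.5 value was 0.90 ± 0.32 above E11.5 (adjusted p = 0.0324), a call that rested on the low replicate 2 at E11.5 (0.35 without it, adjusted p = 0.365) and on replicate 2 at E13.5 (0.68 without it, adjusted p = 0.190). The test of the difference between these 2 rises did not pass (-0.51 ± 0.46, adjusted p = 0.405).

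Junb was the rarest Jun gene, listed at 5.798 and 3.17 FPKM in E11.5 Ebf2-EGFP+ cells, 9.24 and 10.01 at E13.5, then 18.9 and 12.4 on E15.5. The Ebf2-EGFP- libraries of these stages held 5.10 and 5.9997, 3.32 and 5.90, and 16.7 and 11.51. It rose from E11.5 to E15.5 in both, by 1.62 ± 0.30 (adjusted p = 0.000377) and 1.19 ± 0.30 (adjusted p = 0.00252). In Ebf2-EGFP+ cells Junb was already 1.00 ± 0.30 higher at E13.5 (adjusted p = 0.0131; 0.64 and adjusted p = 0.144 without replicate 2 of E11.5, and 0.94 and adjusted p = 0.0664 without replicate 2 of E13.5). In Ebf2-EGFP- cells the rise came from E13.5 to E15.5, by 1.45 ± 0.30 (adjusted p = 0.00167).

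Jund is known for steady rather than induced expression. In Ebf2-EGFP+ cells it was listed at 93.3 and 61.9 FPKM at E11.5, 73.7 and 107 at E13.5, then 96.4 and 99.8 on E15.5. The difference between the outer stages was 0.36 ± 0.24 (adjusted p = 0.179). It passed the test under median-of-ratios scaling (0.61, adjusted p = 0.0481) and without replicate 1 of the E11.5 cells (0.66, adjusted p = 0.0483), and was 0.071 without replicate 2. In Ebf2-EGFP- cells Jund was at 67.9 and 46.8, 98.4 and 107, and 155 and 134, with no overlap between successive stages (37.9% of the table for E15.5 above E13.5). The rise from the first to the last stage was 1.33 ± 0.24 (adjusted p = 0.000217). By E13.5 it was 0.85 ± 0.24 (adjusted p = 0.00915), which lost its call without replicate 2 of the E11.5 cells (0.59, adjusted p = 0.0962) or of the E13.5 cells (0.79, adjusted p = 0.0565). Jun and Jund together made up nearly all of the summed FPKM of the Jun family. Jun held 22.8% to 45.8% of it in Ebf2-EGFP+ libraries and 40.3% to 59.0% in Ebf2-EGFP- libraries, while Junb held between 1.52% and 10.5%.

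Atf3 had the lowest mean FPKM of the 7 genes. It was listed at 0.744 and 0.453 FPKM in E11.5 Ebf2-EGFP+ cells, 0.851 and 0.873 at E13.5, then 0.275 and 0.988 on E15.5. The Ebf2-EGFP- libraries of these stages held 3.58 and 2.94, 4.31 and 6.51, and 1.25 and 3.04, so that the populations did not overlap at any stage. Such a separation with Ebf2-EGFP- cells higher held for 50.1%, 49.7% and 44.6% of the table at the 3 stages in order. The difference from E11.5 to E15.5 passed the test in neither population (0.00 ± 0.28 and -0.50 ± 0.28, adjusted p = 1.00 and 0.119), although in Ebf2-EGFP- cells it passed without replicate 2 of E15.5 (-0.92, adjusted p = 0.00864) and was -0.074 without replicate 1. Atf3 fell from E13.5 to E15.5 in Ebf2-EGFP- cells (-1.07 ± 0.28, adjusted p = 0.00700). That fall lost its call without replicate 2 of E13.5 (-0.82, adjusted p = 0.0551) and without replicate 1 of E15.5 (-0.65, adjusted p = 0.0608).

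Dusp1, the phosphatase that ends MAP kinase signalling, was listed at 64.4 and 36.3 FPKM in E11.5 Ebf2-EGFP+ cells, 45.1 and 49.5 at E13.5, then 51.9 and 59.3 on E15.5. The Ebf2-EGFP- libraries of these stages held 26.8 and 20.1, 35.2 and 58.4, and 65.8 and 72.0. The difference from E11.5 to E15.5 was 0.19 ± 0.27 in Ebf2-EGFP+ cells (adjusted p = 0.528, 95% interval -0.40 to 0.79). It rose by 1.53 ± 0.27 in Ebf2-EGFP- cells (adjusted p = 0.000225). The rise of Dusp1 there by E13.5 was 0.94 ± 0.27 (adjusted p = 0.0113), and the call was lost without replicate 2 of E11.5 (0.74, adjusted p = 0.0903) or of E13.5 (0.58, adjusted p = 0.133). Its difference from E13.5 to E15.5 there was 0.59 ± 0.27 (adjusted p = 0.0757), and 0.95 without replicate 2 of E13.5, where it passed (adjusted p = 0.0169).

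Counted over the 7 genes, 4 rose from E11.5 to E15.5 in Ebf2-EGFP+ cells and none fell, where 75.4% of the table changed, 33.3% upward and 42.1% downward. In Ebf2-EGFP- cells 6 rose and none fell, where 85.4% of the table changed, 37.7% upward and 47.6% downward. The median difference of the 7 genes was 1.43 and 1.37, and that of all genes -0.18 and -0.32. From E11.5 to E13.5, 4 of the 7 rose in each population, where 57.9% and 59.5% of the table changed, 21.8% and 26% upward. From E13.5 to E15.5, 0 of 7 passed limma's test in Ebf2-EGFP+ cells, where 41.9% of the table changed (0 of the 7 at an unadjusted p under 0.05, and 0 with the replicate as a random block, where 42.1% changed). In Ebf2-EGFP- cells Junb rose and Atf3 fell at that step, where 63.6% of the table changed. When the 2 populations of a replicate were averaged into 1 value, which leaves 6 values for 3 stages, Fos (2.56 ± 0.47, adjusted p = 0.000559), Fosb (2.46 ± 0.45, adjusted p = 0.000558), Jun (1.40 ± 0.25, adjusted p = 0.000418) and Junb (1.40 ± 0.22, adjusted p = 0.000192) were again higher at E15.5 than at E11.5, and so were Jund and Dusp1. In that fit 85.8% of the table changed. From E13.5 to E15.5 it called rises of Fosb (1.26 ± 0.45, adjusted p = 0.0373) and Junb (1.03 ± 0.22, adjusted p = 0.00368) and a fall of Atf3 (-0.65 ± 0.23, adjusted p = 0.0329), where 56.4% of the table changed.

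Between the populations, Fos was lower in Ebf2-EGFP+ than in Ebf2-EGFP- cells in all 6 same-numbered pairs, which held for 36.1% of the table, with FPKM ratios from 0.486 to 0.916. Its groups overlapped at every stage. The differences were -0.55 ± 0.61, -0.73 ± 0.61 and -0.60 ± 0.61 in order of stage, and none passed the test (adjusted p = 0.415, 0.295 and 0.416). They depended on single libraries: without replicate 1 or 2 of the Ebf2-EGFP+ cells of the stage the difference was -1.09 and -0.015 at E11.5, 0.16 and -1.62 at E13.5 (adjusted p = 0.0419 for the latter) and -0.13 and -1.08 at E15.5. With the replicate number as a block, each library is set against its same-numbered partner. The labels do not state this pairing, which was taken from the shared deviations in the same data. The same differences then carried an SE of 0.17 and passed the test (adjusted p = 0.00880, 0.00189 and 0.00771). Averaged over the stages the difference was -0.63 ± 0.35 (adjusted p = 0.112, or 6.83e-05 with the block), and it passed without replicate 2 of the E13.5 Ebf2-EGFP+ cells (-0.92, adjusted p = 0.0177) or replicate 1 of their Ebf2-EGFP- partners (-0.90, adjusted p = 0.0281). Here 89.5% of the table passed without the block and 92.8% with it. Rescaling the libraries by median of ratios, together with the block, took the E11.5 difference to -0.30 (adjusted p = 0.132) and that of E15.5 to -0.39, neither of which passed, and kept that of E13.5 at -0.42 (adjusted p = 0.0473).

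At E11.5 both Ebf2-EGFP+ libraries of Fosb lay below both Ebf2-EGFP- libraries, as they did for 50.1% of the table. The difference was -1.14 ± 0.58 (adjusted p = 0.0852, or 2.63e-06 with the block). At E13.5 and E15.5 the difference was -0.07 ± 0.58 and -0.14 ± 0.58 (adjusted p = 0.922 and 0.845; 95% intervals -1.33 to 1.20 and -1.40 to 1.12), and its direction turned under the median-of-ratios scaling. The change of this difference from E11.5 to E13.5 was 1.08 ± 0.82 (adjusted p = 0.325, or 0.000294 with the block). The 4 Fosb ratios of Ebf2-EGFP+ to Ebf2-EGFP- FPKM at the later stages lay between 0.847 and 0.965, against 0.401 and 0.391 at E11.5.

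Jun was lower in Ebf2-EGFP+ cells at E11.5 (-0.83 ± 0.32, adjusted p = 0.0322) and at E13.5 (-1.34 ± 0.32, adjusted p = 0.00281). At E15.5 the difference was -0.77 ± 0.32, which missed the threshold (adjusted p = 0.0590) and passed it with the block (adjusted p = 0.00184). The E11.5 call was lost under median-of-ratios scaling (-0.57, adjusted p = 0.161). It was also lost without replicate 2 of the E11.5 Ebf2-EGFP+ cells (-0.29, adjusted p = 0.407) and without replicate 1 (-0.74, adjusted p = 0.130) or replicate 2 (-0.92, adjusted p = 0.0663) of the Ebf2-EGFP- cells. The average over the stages was -0.98 ± 0.19 (adjusted p = 0.000344).

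Junb and Dusp1 were each higher in Ebf2-EGFP+ cells at 1 stage, while their averages over the stages, 0.27 ± 0.17 and 0.26 ± 0.16, missed the threshold (adjusted p = 0.155 and 0.135) and passed it with the block (adjusted p = 0.0498 and 0.0118). Under median-of-ratios scaling these averages were 0.50 and 0.51 and passed (adjusted p = 0.0155 and 0.0144). At E13.5 Junb was 0.96 ± 0.30 higher in Ebf2-EGFP+ cells (adjusted p = 0.0116), with 9.24 and 10.01 against 3.32 and 5.90 FPKM, and the call was lost without replicate 2 of the Ebf2-EGFP+ cells (0.91, adjusted p = 0.0549) or replicate 1 of the Ebf2-EGFP- cells (0.62, adjusted p = 0.124). At E11.5 and E15.5 the Junb difference was -0.29 ± 0.30 and 0.14 ± 0.30 (adjusted p = 0.368 and 0.710). Dusp1 was 1.03 ± 0.27 higher in Ebf2-EGFP+ cells at E11.5 (adjusted p = 0.00405; 0.62 and adjusted p = 0.0641 without replicate 1 of that group) and was at 0.06 ± 0.27 and -0.31 ± 0.27 at the later stages. The Jund difference was 0.42 ± 0.24 at the first stage and -0.55 ± 0.24 at the last (adjusted p = 0.115 and 0.0653), both called with the block (adjusted p = 0.00559 and 0.00178). The former also passed under the scaling (0.68, adjusted p = 0.0273), when replicate 2 of the Ebf2-EGFP+ cells was left out (0.72, adjusted p = 0.0301) and when replicate 1 of the Ebf2-EGFP- cells was (0.69, adjusted p = 0.0395). Atf3 was lower in Ebf2-EGFP+ cells at all 3 stages, with -1.42 ± 0.28 (adjusted p = 0.000618), -1.76 ± 0.28 (adjusted p = 0.000188) and -0.92 ± 0.28 (adjusted p = 0.0160). The E15.5 call of Atf3 was lost without replicate 1 of the Ebf2-EGFP+ cells (-0.60, adjusted p = 0.145) or replicate 2 of the Ebf2-EGFP- cells (-0.50, adjusted p = 0.142).

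**Figure D3:**
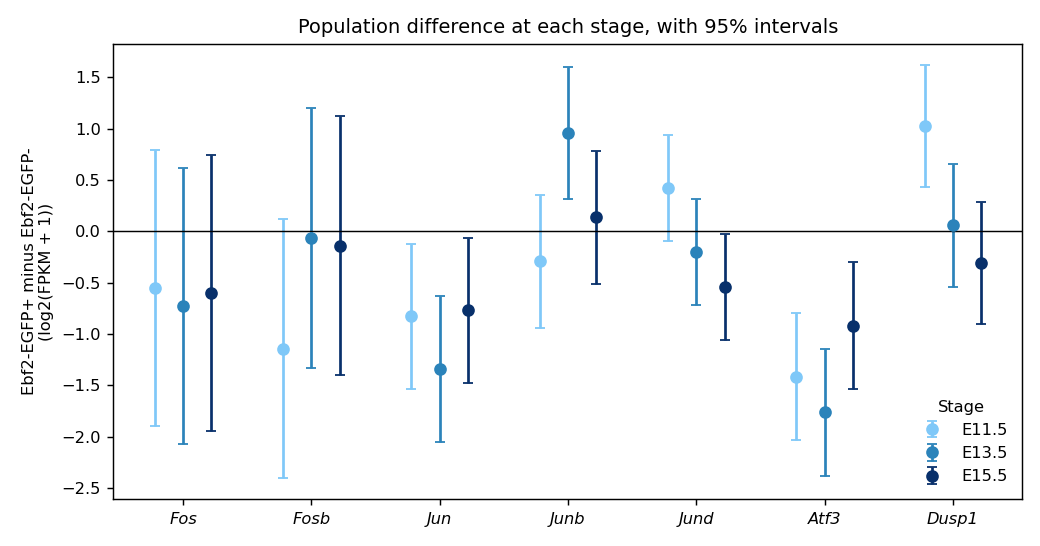
Difference of Ebf2-EGFP+ minus Ebf2-EGFP- cells on the log2(FPKM + 1) scale for each gene at the 3 stages (light to dark blue from E11.5 on), with 95% intervals from the fit without the block. Atf3 lies below 0 at all 3 stages, Jun lies below 0 with intervals that stay short of 0, and the intervals of Fos and Fosb cross 0.

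Of the 7 genes, 1 was higher and 2 were lower in Ebf2-EGFP+ cells at E11.5, 1 was higher and 2 were lower at E13.5, and 1 was lower at E15.5, where 81.7%, 75.6% and 57.4% of the table passed the test. These are 42.9%, 42.9% and 14.3% of the 7, fewer than of the table, which had been chosen for such differences. With the block, 6, 4 and 4 of the 7 passed, where 86.8%, 82.8% and 70.3% of the table did. The change of the population difference between stages passed for Junb alone among the 7 from E11.5 to E13.5 (1.25 ± 0.42, adjusted p = 0.0364), where 35.2% of the table passed. That call was lost when any of 6 of the E11.5 and E13.5 libraries was left out, with values from 0.90 (adjusted p = 0.150, without replicate 2 of the E11.5 Ebf2-EGFP+ cells) to 1.35. From E13.5 to E15.5 it passed for 0 of 7 by limma (12.6% of the table; 0 at an unadjusted p under 0.05, and 2 with the block). The block added Fosb, Jund and Dusp1 at the first step (51.8% of the table) and Junb and Atf3 at the second (36.5% of the table).

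The libraries of the 2 populations differed in their cell content. At E13.5 the summed FPKM of 8 radial glia markers was 201 and 222 in Ebf2-EGFP+ and 1053 and 1575 in Ebf2-EGFP- libraries, and that of 7 cell cycle markers was 102 to 150 and 489 to 784. Over the stages the cell cycle markers went from 935 and 1070 at E11.5 to 146 and 234 at E15.5 among the Ebf2-EGFP- libraries. The 6 cortical plate markers there went from 70.7 and 72.2 at E11.5 to 457 and 566 at E13.5, then 704 and 871 at E15.5. In Ebf2-EGFP+ libraries they were at 207 and 259, 890 and 890, and 674 and 1030 at the same stages. The 5 intermediate progenitor markers summed to 227 and 242 in E11.5 Ebf2-EGFP+ and to 81.3 and 90.1 in E11.5 Ebf2-EGFP- libraries. At the later stages they were lower in Ebf2-EGFP+ libraries. Of 12 erythroid markers 7 were in the table, and their sum was 305 to 2884 in Ebf2-EGFP- libraries against 9.29 to 99.998 in Ebf2-EGFP+ libraries, where 3 of the 7 were listed at 0 in both E15.5 libraries. The 9 meningeal markers summed to 122 and 143 in E11.5 Ebf2-EGFP- cells, to 45.2 and 51.1 in E11.5 Ebf2-EGFP+ cells and to at most 7.86 in later libraries. Of 8 endothelial markers 3 were in the table (0.322 to 7.19), and of 10 microglia markers 1 (0.111 to 2.92). The 8 interneuron markers summed to 1.61 to 14.9 in Ebf2-EGFP+ and 49.0 to 239 in Ebf2-EGFP- libraries. The part of these cells in the differences of Fos, Fosb, Jun and the other genes was not tested.

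The replicates were the third source of variation. At E13.5 replicate 2 exceeded replicate 1 in Fos by 3.48-fold in Ebf2-EGFP+ cells and by 3.14-fold in Ebf2-EGFP- cells, as ratios of FPKM. Fosb did so by 3.90-fold and 3.80-fold. Among all 4859 genes, Fos and Fosb were the only 2 for which replicate 2 was at least 1 higher on the log2(FPKM + 1) scale in both populations at that stage (Fos 1.77 and 1.64, Fosb 1.83 and 1.80), while the median gene differed by -0.12 and -0.09. They ranked 3 and 2 from the top in Ebf2-EGFP+ cells and 6 and 5 in Ebf2-EGFP- cells. Jun shared the direction with a much smaller step, 1.35-fold and 1.39-fold.

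At E15.5 replicate 2 was again the higher one for Fos, by 1.95-fold and 1.62-fold, for Jun, by 1.47-fold and 1.34-fold, and for Atf3, by 3.60-fold and 2.44-fold at low levels. Junb went the opposite way at this stage, with replicate 2 at 0.659 and 0.688 of replicate 1. At E11.5 replicate 2 was the lower one for all 7 genes in Ebf2-EGFP+ cells, at 0.455 of replicate 1 for Fos, 0.459 for Jun and 0.563 for Dusp1, and for 6 of the 7 in Ebf2-EGFP- cells, where Junb was at 1.18. The replicate number thus had no fixed direction across the stages.

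The shared deviation of same-numbered libraries was tested with limma's moderated F test for the replicate within stage. It passed for 6 of the 7 genes, where 9.51% of the table passed: Fosb (adjusted p = 0.000112), Fos (adjusted p = 0.000809), Jund (adjusted p = 0.0327), Jun and Atf3 (both adjusted p = 0.0330) and Dusp1 (adjusted p = 0.0405), but not Junb (adjusted p = 0.135). After the replicate, stage, population and stage-by-population terms were taken out, 1.05% of the variation of Fos and 0.0508% of that of Fosb were left.

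**Figure D4:**
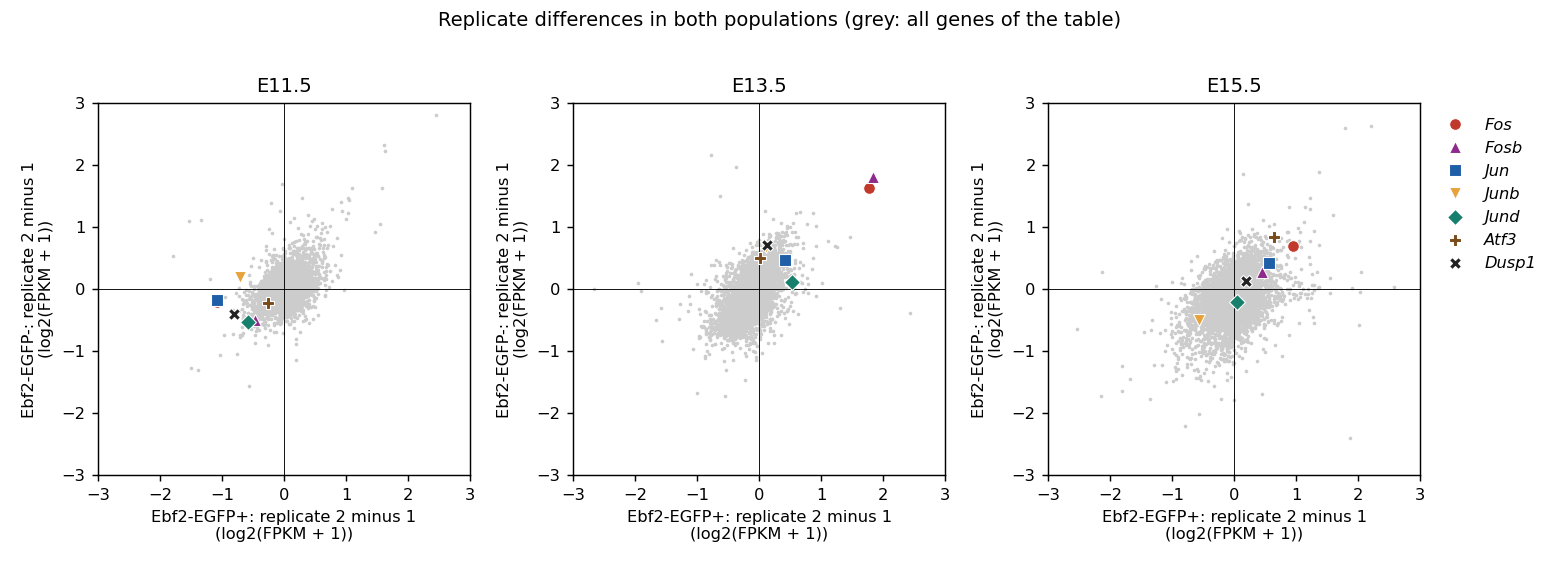
Difference of replicate 2 minus replicate 1 on the log2(FPKM + 1) scale in Ebf2-EGFP+ cells (x axis) against Ebf2-EGFP- cells (y axis) at each stage, for all genes of the table (grey; 3 genes lie outside the axes) and the 7 genes (coloured symbols; Fos lies under Jun at E11.5). At E13.5 Fos and Fosb stand at the upper right, away from all other genes.

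Other values moved with the replicate at E13.5. The cell cycle markers were lower in replicate 2 of both populations (150 to 102 and 784 to 489), and so were the radial glia markers (222 to 201 and 1575 to 1053) and the 5 intermediate progenitor markers (162 to 102 and 440 to 314). Of the 16 heat shock and stress genes in the table, 1 was higher in replicate 2 of both populations at E13.5, against 20.5% of all genes, and their summed FPKM was lower in replicate 2 (409 to 362 and 745 to 606). Of the 29 further immediate early genes in the table, 9 were higher in replicate 2 of both, and of 21 neuronal activity genes, a list that includes Fosb, 8 were. At E15.5 the inducible heat shock genes Hspa1a (2.15 to 4.72 in Ebf2-EGFP+ and 1.88 to 4.46 in Ebf2-EGFP- cells) and Hspa1b (2.82 to 5.89 and 2.38 to 5.42) were higher in replicate 2 of both populations, as Fos was. These 2 genes were chosen after their values were seen. The summed FPKM of the 16 heat shock and stress genes at E15.5 did not share this direction in both populations. From replicate 1 to replicate 2 it went from 400 to 430 in Ebf2-EGFP+ and from 541 to 437 in Ebf2-EGFP- cells. The part of these values in the replicate differences was not tested.

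The genes whose pattern over the 12 libraries was most like that of Fos, by Pearson r of log2(FPKM + 1) among 4461 genes with a mean FPKM of at least 1, were Fosb (r = 0.92), Ust (0.91), Jun (0.90), 2310022B05Rik (0.88) and Klf2 (0.87). For Fosb they were Fos (0.92), Fhod3 (0.92), Focad (0.91), Ski (0.90) and Mmp17 (0.88). For Jun they were Klf2 (0.94), Fos (0.90), Rgs5 (0.89), Klf4 (0.89) and Inhbb (0.89). The libraries fall into 6 groups, so these values mostly reflect the group means and are a description. Junb ranked 403 for Fos and 69 for Fosb, Atf3 ranked 1437 and 1811, and Dusp1 220 and 655. Klf2, a zinc finger factor that is itself induced by MAP kinase signalling, carried the replicate step too: it was at 0.965 and 2.70 FPKM in E13.5 Ebf2-EGFP+ cells and at 3.30 and 5.97 in Ebf2-EGFP- cells. Fhod3, Focad and Ski rose over the stages and carried a smaller step, with replicate 2 between 0.20 and 0.44 above replicate 1 at E13.5 on the log2 scale. The median gene differed by -0.12 in Ebf2-EGFP+ and -0.09 in Ebf2-EGFP- cells.

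For the wider lists, each count from E11.5 to E15.5 is to be read against the whole table, where 33.3% of genes rose and 42.1% fell in Ebf2-EGFP+ cells (median -0.18) and 37.7% rose and 47.6% fell in Ebf2-EGFP- cells (median -0.32). Of the 51 immediate early genes listed, 29 were in the table, and from E11.5 to E15.5 12 rose and 11 fell in Ebf2-EGFP+ cells and 12 rose and 13 fell in Ebf2-EGFP- cells, with medians of -0.07 and 0.28. In both populations these counts lie near the shares of the table. The largest changes in Ebf2-EGFP+ cells were Nr4a3, an orphan nuclear receptor induced by activity (4.62 ± 0.37, adjusted p = 7.73e-07), Gadd45a (-2.74 ± 0.22, adjusted p = 7.73e-07), Id2 (2.17 ± 0.17, adjusted p = 5.89e-07) and Plk3 (-2.001 ± 0.15, adjusted p = 5.59e-07). Nr4a3 stood at 0.938 and 0.747 FPKM in E11.5 Ebf2-EGFP+ cells and at 53.5 and 36.8 at E15.5, against the rise of Fos from 28.6 and 13.01 to 83.6 and 163. Among the 8 AP-1 partners in the table, of 22 listed and with Junb, Jund and Atf3 among them, 3 rose and 2 fell in Ebf2-EGFP+ cells, and 6 rose and 1 fell in Ebf2-EGFP- cells (medians 0.20 and 1.26). Maf was lower in Ebf2-EGFP+ than in Ebf2-EGFP- cells at E15.5 (-3.03 ± 0.14, adjusted p = 2.42e-07).

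Of 27 negative feedback genes listed, 19 were in the table, Dusp1 among them, and 5 rose and 12 fell from E11.5 to E15.5 in Ebf2-EGFP- cells (median -0.996), and 2 rose and 8 fell in Ebf2-EGFP+ cells (median -0.44), against 47.6% and 42.1% of the table that fell. Dusp6, an ERK phosphatase, rose in Ebf2-EGFP+ cells by 2.03 ± 0.27 (adjusted p = 4.02e-05), and Zfp36l1, which promotes mRNA decay, fell by 1.93 (SE 0.31, adjusted p = 0.000158). Of the 46 genes of the MAP kinase route to the promoters 13 were in the table, and 3 rose and 8 fell in Ebf2-EGFP+ cells and 4 rose and 8 fell in Ebf2-EGFP- cells, where 42.1% and 47.6% of the table fell (medians -0.61 and -0.51). The largest changes in Ebf2-EGFP- cells were falls of Mapk12 (-2.43 ± 0.14, adjusted p = 7.31e-08) and Map3k1 (-1.67 ± 0.18, adjusted p = 4.30e-06). After them came a rise of Mapk8 (1.59 ± 0.18, adjusted p = 6.23e-06). Mapk10, a neuronal JNK that phosphorylates Jun, rose by 1.35 ± 0.20 in these cells (adjusted p = 4.97e-05). At E11.5 Mapk10 was 1.57 ± 0.20 higher in Ebf2-EGFP+ than in Ebf2-EGFP- cells (adjusted p = 1.97e-05).

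Of 31 neuronal activity genes, 21 were in the table. From E11.5 to E15.5 11 rose and 5 fell in Ebf2-EGFP+ cells, and 12 rose and 3 fell in Ebf2-EGFP- cells, where 33.3% and 37.7% of the table rose, with medians of 0.86 and 1.29 against -0.18 and -0.32 over all genes. In E11.5 Ebf2-EGFP+ cells 13 were higher and 4 were lower than in their Ebf2-EGFP- partners, against 36.8% and 44.9% of the table. The largest change from E11.5 to E15.5 in Ebf2-EGFP+ cells was a fall, that of Rasgrp1 (-5.07 ± 0.23, adjusted p = 2.34e-08). Next were rises of Nr4a3 (4.62 ± 0.37, adjusted p = 7.73e-07) and Npy (3.93 ± 0.33, adjusted p = 1.29e-06). Npas4, which is induced by neuronal activity rather than by growth factors, was chosen after its values were seen. It was at 0.68 and 0.729 FPKM in E11.5 Ebf2-EGFP+ cells and at 2.39 and 5.95 at E15.5. Of the 36 heat shock and stress genes 16 were in the table, and 6 rose and 5 fell in Ebf2-EGFP+ cells and 5 rose and 8 fell in Ebf2-EGFP- cells over the same interval, shares near those of the table (33.3% and 42.1%, and 37.7% and 47.6%).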

How the data were processed

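Bulk RNA-seq of sorted Ebf2-EGFP+ and Ebf2-EGFP- cells gave 12 libraries in 6 groups of 2, which the study calls biological replicates. Groups and replicate numbers were taken from the sample labels. The deposited FPKM were made by the authors with TopHat2 2.0.8b and Cufflinks 2.2.0 on mm10, per the submitters' processing notes and the study's methods. FPKM keep no counts, so the depth of each library is unknown and no counting interval could be given. The table held 4859 coding genes that the authors had called different between the populations, which raises the share of genes called here. Columns with the authors' own fold changes and p-values were not used, nor was the lncRNA table. Rows for Egr1 and Ier2 were not analysed here.

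One limma model (limma 3.58.1, R 4.3.3) of log2(FPKM + 1) with 6 groups, a mean-variance trend and no filter was fitted to all genes, and p-values were Benjamini-Hochberg adjusted over 4859 genes, with calls at 0.05. The study tested reads, which FPKM do not allow. A difference on this scale understates the change of low genes. Same-numbered libraries of the 2 populations deviated together (correlations 0.431, 0.534 and 0.431 from the earliest to the latest stage, over 4859 genes). The labels do not say that equal numbers come from one sort, so the pairing rests on these correlations in the same data. On that basis the replicate number was also fitted as a block, fixed for population differences and random for stage changes. The fixed block takes the replicate spread out of the error of a stage change, and it was not used there. The random block, the means of both populations and the scaling together with the block were chosen after seeing the data. Alternatives were a pseudocount of 0.1, a mean FPKM of at least 1, median-of-ratios scaling, the compared groups alone, a threshold of 0.01, no mean-variance trend, and leaving out each library. The fit was tested on simulated data. Figures were drawn with matplotlib 3.10.9 under Python 3.11.15.

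The genes and lists were chosen with earlier results of these data known. All genes of the rule in the table are named, with the 5 most alike genes of Fos, Fosb and Jun and, for each list and comparison, some of up to 4 called genes with the largest change. Promoter windows came from RefSeq (GRCm38.p6).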

Additional observations from a re-analysis of the deposited data

Results flagged for a closer look

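Junb was singled out because its population difference moved between stages by a test of that change. The difference of Ebf2-EGFP+ minus Ebf2-EGFP- cells went from -0.29 at E11.5 to 0.96 at E13.5, a change of 1.25 ± 0.42 on the log2(FPKM + 1) scale (limma, adjusted p = 0.0364, or 0.00451 with the replicate block). The 4 libraries behind each difference held 5.798 and 3.17 against 5.10 and 5.9997 FPKM at E11.5, and 9.24 and 10.01 against 3.32 and 5.90 FPKM at E13.5. Without the block, the call was lost when any of 6 of these libraries was left out, with changes from 0.90 to 1.35. It was also lost at a threshold of 0.01.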

How the results depend on the processing

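Of 1617 values recomputed under another setting, 1461 kept their direction and their side of the threshold, 63 newly passed it, 44 no longer passed it and 49 turned direction, with counts of genes judged apart. With the replicate block the population difference of Fos passed at all 3 stages (-0.55, -0.73 and -0.60) and on average (-0.63), as did Fosb at E11.5 (-1.14) and on average (-0.45) and Jun at E15.5 (-0.77). The averages of Junb (0.27) and Dusp1 (0.26) passed as well. The block changed the further calls given in the report, called 1775 genes in place of 610 in the later change of the population difference, and changed no other call of the 7 genes. Median-of-ratios scaling moved the median population difference of all genes by 0.19, 0.19 and 0.13 at the 3 stages, and the median change after E11.5 by 0.16 and 0.14 in Ebf2-EGFP+ and 0.12 and 0.22 in Ebf2-EGFP- cells (to E13.5 and E15.5). Under it Jun at E11.5 was -0.57 and no longer passed, and Fosb turned at E13.5 (0.23) and E15.5 (0.063), Jund at E13.5 (0.10) and on average (0.15), Dusp1 from E11.5 to E13.5 in Ebf2-EGFP+ cells (0.19), and Jun from E13.5 to E15.5 in Ebf2-EGFP- cells (0.087). It gained the calls of Jund at E11.5 (0.68), of Jund from E11.5 to E15.5 in Ebf2-EGFP+ cells (0.61) and of the averages of Junb (0.50) and Dusp1 (0.51). The share of stage in Jun went to 67.3% and that of population to 16.8%. Scaling with the block let Fosb at E11.5 (-0.90), Fos at E13.5 (-0.42), Jun at E15.5 (-0.56), and the averages of Fos (-0.37) and Fosb (-0.21) pass, as well as Jund at E11.5 (0.68) and E15.5 (-0.34), Dusp1 at E13.5 (0.36, against 0.06) and the averages of Junb (0.50) and Dusp1 (0.51). With a pseudocount of 0.1 the whole-interval change of Atf3 in Ebf2-EGFP+ cells was -0.10. At a threshold of 0.01 Jun at E11.5 (-0.83) no longer passed, and the genes called were 1254 (E13.5 to E15.5, Ebf2-EGFP+), 946 and 98 (earlier and later change of the population difference). With the compared groups alone Fosb at E11.5 (-1.14) passed, and 138 genes were called in the later change. The cause was not tested.

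When single libraries were left out, the population difference at E11.5 ran from -1.09 to -0.015 for Fos, -1.39 to -0.90 for Fosb, -1.37 to -0.29 for Jun and -0.65 to 0.057 for Junb. At E13.5 it ran from -1.62 to 0.16 for Fos, -0.98 to 0.85 for Fosb, -0.47 to 0.057 for Jund and -0.30 to 0.41 for Dusp1, and at E15.5 from -1.08 to -0.13 for Fos, -0.37 to 0.083 for Fosb, -1.05 to -0.49 for Jun and -0.15 to 0.42 for Junb. The averages (called without replicate 2 of the E13.5 Ebf2-EGFP+ or replicate 1 of the Ebf2-EGFP- cells) ran from -0.92 to -0.33 for Fos and -0.76 to -0.14 for Fosb. In Ebf2-EGFP+ cells the change to E13.5 ran from -0.073 to 0.51 for Jund and -0.44 to 0.37 for Dusp1, that from E13.5 to E15.5 from -0.27 to 1.51 for Fos, 0.31 to 2.14 for Fosb, -0.12 to 0.41 for Jund and -0.55 to 0.095 for Atf3 (1247 to 2131 genes called), and that from E11.5 to E15.5 from 0.071 to 0.66 for Jund, -0.32 to 0.32 for Atf3 and -0.21 to 0.60 for Dusp1. In Ebf2-EGFP- cells the change to E13.5 ran from -0.25 to 1.56 for Fosb and -0.60 to 0.080 for Junb, that from E13.5 to E15.5 from -0.33 to 1.31 for Fos, 0.40 to 2.203 for Fosb, 0.23 to 0.95 for Dusp1 and -0.27 to 0.20 for Jun (1962 to 3129 genes called), and that from E11.5 to E15.5 from 1.71 to 2.205 for Fosb and -0.92 to -0.074 for Atf3. The change of the population difference to E13.5 ran from -1.06 to 0.71 for Fos, -1.06 to 0.029 for Jun and -1.38 to -0.57 for Dusp1 (which passed without replicate 2 of the E11.5 Ebf2-EGFP+ or replicate 1 of the E13.5 Ebf2-EGFP- cells), and that after E13.5 from -0.76 to 1.013 for Fos and -0.99 to 0.84 for Fosb (125 to 1135 genes called). A group left with 1 library is assumed to vary like the others. The fixed block was not run for stage changes.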

Other observations

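Among genes not described above, the feedback phosphatases split by population and stage. Dusp4 was 3.74 higher in Ebf2-EGFP+ than in Ebf2-EGFP- cells at E11.5 on the log2(FPKM + 1) scale, and Dusp16 was lower by 2.19 (-2.19). Dusp14 rose from E11.5 to E13.5 in both populations, by 1.61 and 2.18, whereas Il17rd, an inhibitor of FGF signalling, fell in both (-1.27 and -2.04). Of the immediate early list, Hes1 (-3.50) and Id3 (-3.03) were lower at E11.5 in Ebf2-EGFP+ cells, and Hes1 is also a marker of radial glia.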
